A study of Mus musculus with 4 samples.

Results

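The 10 genes described here encode receptor chains through which granulocytes sense growth factors and cytokines. The rule lists them by name and uses no measured value, although it was written with earlier results of these data known: *Csf3r*, *Csf2ra*, *Csf2rb* and *Csf2rb2* for the colony-stimulating factors, *Il6ra* and *Il4ra* for the interleukins, *Ifnar1* and *Ifnar2* for type I interferon, and *Ifngr1* and *Ifngr2* for type II interferon. All 10 were found once among the 28585 genes listed, and all 10 were among the 17948 genes tested. They were measured by bulk RNA sequencing in polymorphonuclear myeloid-derived suppressor cells (PMN-MDSCs), neutrophil-like cells that restrain T cells, from the spleens of mouse pups on postnatal day 7. There were 2 libraries of each genotype, each from 300000 cells. Dhps flox pups carried floxed alleles of *Dhps*, the gene of deoxyhypusine synthase, without Cre. Dhps cko pups carried the same floxed alleles and, in addition, *Lysm cre*, a Cre recombinase expressed from the *Lyz2* locus in myeloid cells. Cre and the loss of *Dhps* therefore came together in one genotype, and their effects cannot be told apart. The animals were on a C57BL/6J background and the cells were sorted as CD11b+, Ly6G+ and Ly6C low or negative. The study states that such a sort may take in polymorphonuclear cells besides PMN-MDSCs. The study describes the genotypes as littermates, without saying which libraries shared a litter. The labels do not say how many pups gave 1 library, or their sex, so the p-values measure only the spread between these libraries.

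Granulocytes depend on these receptors from birth in the marrow to death in the tissue. The G-CSF receptor drives the production and release of neutrophils, and the GM-CSF receptor prolongs their survival and primes them for activation. IL-6 acts through a specific chain that joins the shared chain gp130, and IL-4 through a chain that pairs with the common gamma chain or with IL-13 receptor alpha 1. Each interferon receptor is a pair of different chains. All of these receptors lack a kinase of their own and signal through Janus kinases (JAKs) and the STAT transcription factors.

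A pair among these genes is nearly identical, which bears on how reads were assigned to them. *Csf2rb* encodes the beta chain that GM-CSF, IL-3 and IL-5 share, and *Csf2rb2* a beta chain for IL-3 that mice have in addition. Their coding sequences, of 2691 and 2637 bases in GENCODE M21, matched at 95.2% of 2631 aligned positions, and the longest stretch without a difference was 242 bases. Of all windows of 100 bases in their transcripts, 334 were in both genes, which is 4.6% of the windows of *Csf2rb* and 6.8% of those of *Csf2rb2*. At 150 bases the shares were 2.3% and 3.3%. Coding bases 19 to 138 of both genes are shown because this stretch of 120 bases holds about the average number of differences, which is 6 and is marked by capitals.
Csf2rb: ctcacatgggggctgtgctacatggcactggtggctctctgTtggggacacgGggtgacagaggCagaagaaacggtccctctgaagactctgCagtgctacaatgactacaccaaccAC
Csf2rb2: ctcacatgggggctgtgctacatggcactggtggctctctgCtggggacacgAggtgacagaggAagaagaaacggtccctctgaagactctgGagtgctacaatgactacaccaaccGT
Reads from the stretches without a difference could be counted for either gene, and the values of this pair are uncertain to that extent.

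Promoters were available for 9 of the 10 genes, all but *Csf2rb*, from RefSeq on GRCm38.p6. Each was 300 bases long and reached across the start of the transcript. The letters GAGGAAG, which hold the core that ETS factors such as PU.1 bind, were searched on both strands, overlapping matches included. They were in 13.6% of all 32851 promoters and in those of *Csf3r*, *Csf2ra* and *Csf2rb2*, and were not in the other 6. These 3 promoters, all of growth factor receptor genes, are shown because they hold matches, which are in capitals. They lie at chr4:126024409-126024708 on the plus strand for *Csf3r*, at chr19:61228369-61228668 on the minus strand for *Csf2ra*, and at chr15:78305672-78305971 on the minus strand for *Csf2rb2*.
Csf3r: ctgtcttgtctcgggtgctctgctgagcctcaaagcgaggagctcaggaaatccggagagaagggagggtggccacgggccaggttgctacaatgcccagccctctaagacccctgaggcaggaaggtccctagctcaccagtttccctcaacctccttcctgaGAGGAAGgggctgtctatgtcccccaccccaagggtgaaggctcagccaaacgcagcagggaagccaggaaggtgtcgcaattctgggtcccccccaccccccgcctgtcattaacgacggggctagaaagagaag
Csf2ra: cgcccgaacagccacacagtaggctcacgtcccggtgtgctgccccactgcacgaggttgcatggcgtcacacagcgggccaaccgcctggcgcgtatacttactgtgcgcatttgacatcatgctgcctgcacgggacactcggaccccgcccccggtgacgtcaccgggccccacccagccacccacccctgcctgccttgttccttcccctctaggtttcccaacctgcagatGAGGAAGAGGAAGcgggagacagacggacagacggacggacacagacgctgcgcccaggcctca
Csf2rb2: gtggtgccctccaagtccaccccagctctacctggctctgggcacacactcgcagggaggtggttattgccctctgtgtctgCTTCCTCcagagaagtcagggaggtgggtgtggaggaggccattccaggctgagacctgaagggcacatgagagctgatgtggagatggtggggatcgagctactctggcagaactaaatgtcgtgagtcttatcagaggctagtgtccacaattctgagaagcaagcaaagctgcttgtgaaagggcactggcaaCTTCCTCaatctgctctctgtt
The letters GCAAT, part of the site that C/EBP factors bind, were in 4 of the 9 promoters (*Csf3r*, *Csf2rb2*, *Il6ra* and *Ifngr1*) and in 26.4% of all. The STAT element TTCNNNGAA was in 3 (*Csf2rb2*, *Ifnar1* and *Ifnar2*) and in 8.3% of all. The interferon-stimulated response element, searched as GAAA and again GAAA with any 2 bases between, was in 0 of the 9 and in 3.4% of all. Such matches describe the letters only.

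The values are FPKM, the fragments of a gene scaled to the length of its transcripts and to the reads mapped in the library, so levels can be compared between genes. They summed to between 304281 and 319286 in a library, and between 10611 and 10729 genes reached 1 FPKM. FPKM hold no read counts, so the depth behind each value is unknown. As a check of the labels, *Dhps* was at 2.38 and 2.59 FPKM in the Dhps cko libraries and at 3.57 and 3.11 in the Dhps flox libraries (limma adjusted p = 0.629), so it was lower in both Dhps cko libraries without passing the test. *Lyz2*, the lysozyme gene whose locus carries the Cre, was at 2245.27 and 2379.85 FPKM against 6873.61 and 6544.27 FPKM (limma adjusted p = 0.0835). Neutrophil markers were abundant in every library, with *Ly6g* between 184.8 and 241.58 FPKM.

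The 10 genes fell into a steep order of levels that was nearly the same in every library. *Csf3r* was at the top with a mean of 213.4 FPKM over the 4 libraries, which placed it in rank 133 of the 17948 genes. *Csf2ra* followed at 112.4, *Csf2rb* at 59.84 and *Ifngr1* at 37.54 FPKM, each with a range over libraries that did not touch that of the next. *Ifnar2* at 23.2, *Ifngr2* at 20.48 and *Csf2rb2* at 19.04 FPKM came next. The ranges of *Ifnar2* and *Ifngr2* overlapped, as did those of *Ifngr2* and *Csf2rb2*, so these neighbours did not differ beyond their spread over libraries. Within libraries, *Ifnar2* was above *Ifngr2* in 4 of 4 and *Ifngr2* above *Csf2rb2* in 3 of 4. *Il6ra* at 17.13 FPKM lay below *Csf2rb2* and above *Ifnar1* without overlap, although its highest library, at 17.84, was close to the lowest of *Csf2rb2*, at 18.1. *Ifnar1* at 14.33 and *Il4ra* at 13.52 FPKM were the lowest, with overlapping ranges. *Csf3r* alone held between 39.51% and 40.78% of the summed FPKM of the 10 genes, and *Csf2ra* between 20.32% and 21.6%. The sum itself was 551.24 and 539.93 FPKM in the Dhps cko libraries and 493.62 and 538.74 in the Dhps flox libraries, so Dhps flox replicate 1 lay below the other 3.

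**Figure D1:**
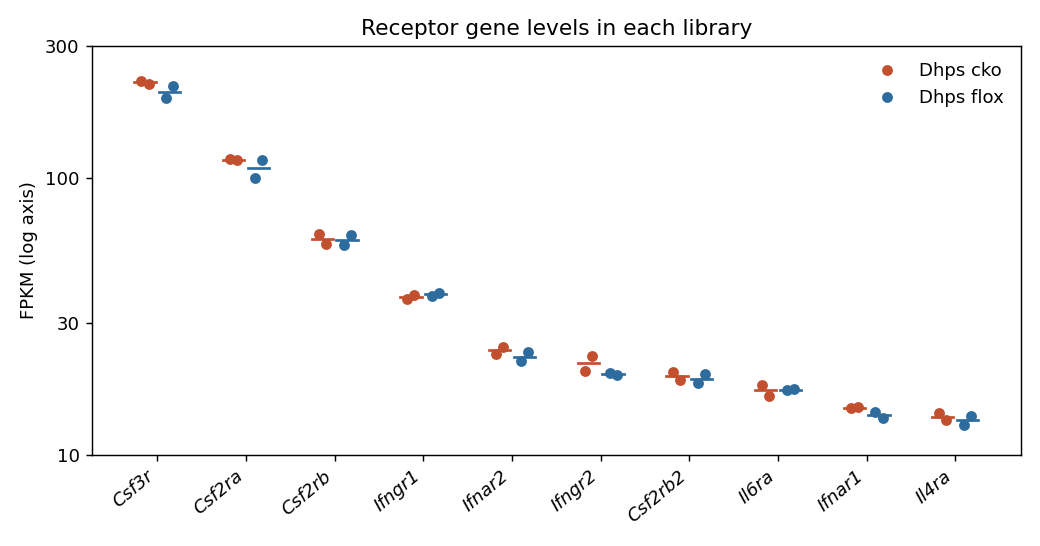
FPKM of the 10 receptor genes on a log axis, ordered by their mean, with 1 point per library, Dhps cko in red and Dhps flox in blue, and a line at the mean of each genotype. The genes span from 12.84 FPKM for *Il4ra* to 224.79 FPKM for *Csf3r*, while the points of the genotypes lie close together for each gene.

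The comparison of the genotypes asks whether PMN-MDSCs from Dhps cko pups carried other receptor transcript levels. For none of the 10 genes did the difference pass the test. With limma on log2(FPKM + 0.1) and Benjamini-Hochberg adjustment over all genes, 0 of the 10 had an adjusted p under 0.05, against 1 of the 17948 genes tested (0.00557%). At an unadjusted p under 0.05 there were also 0 of 10, where 4.72% of all genes were higher in Dhps cko and 2.28% lower. The median log2 fold change of the 10 was 0.060, and that of all genes 0.010. They were 0.028 and -0.020 by TPM scaling, 0.047 and -0.0019 with size factors, and 0.038 and -0.011 after quantile normalization. Both Dhps cko libraries lay above both Dhps flox libraries for 3 of the 10, where 20.0% of all genes did so, and both lay below for 0 of the 10, where 16.0% of all genes did. The 95% interval of each gene held 0, and each stayed within a 1.5-fold change in either direction, so these 4 libraries bound the differences even though they do not show equality. The intervals come from limma, which shares the spread across genes, since an exact permutation test of 2 against 2 libraries gives no p below 0.33.

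**Figure D2:**
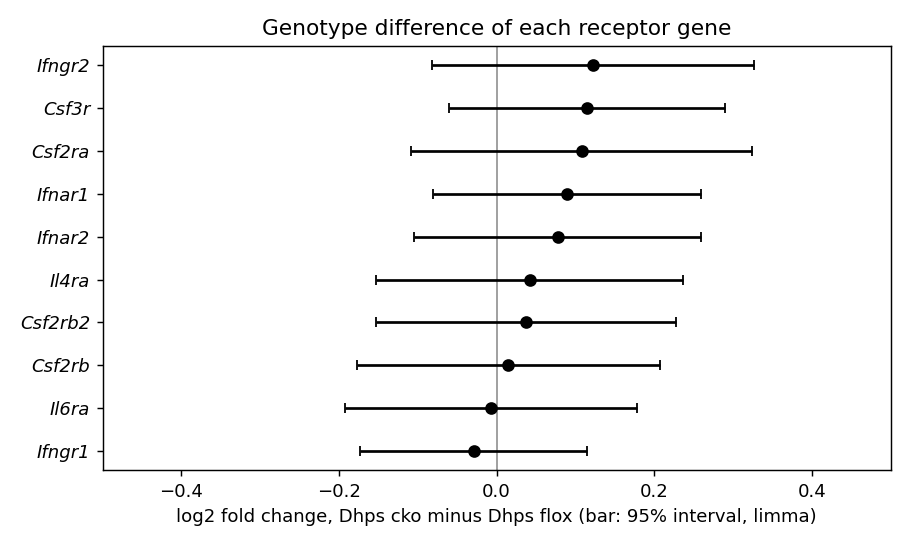
Log2 fold change of each receptor gene, Dhps cko minus Dhps flox, with its 95% interval from limma. The values run from -0.029 for *Ifngr1* to 0.12 for *Ifngr2*, and the 10 intervals all cross 0.

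The 3 most abundant of the genes were chains of growth factor receptors. *Csf3r* (ENSMUSG00000028859; chromosome 4, 126024550 to 126044440, plus strand, GRCm38) encodes the G-CSF receptor, which acts as a pair of the same chain. It was at 224.79 and 218.72 FPKM in the Dhps cko libraries, replicate 1 first here and throughout, and at 195.03 and 215.15 FPKM in the Dhps flox libraries. The groups did not overlap, but Dhps flox replicate 2 was near the Dhps cko libraries and the gap between the Dhps flox libraries, 0.14 on the log2 scale, was larger than the difference between genotypes. The means were 221.8 ± 4.3 FPKM (SD, n = 2) and 205.1 ± 14 FPKM (SD, n = 2), a log2 fold change of 0.11 (standard error, SE, 0.068, limma adjusted p = 0.791). The Dhps cko level was 108.1% of the Dhps flox level, with a 95% interval on the log2 scale that runs from 95.9% to 122%.

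*Csf2ra* (ENSMUSG00000059326; chromosome 19, 61223957 to 61228429, minus strand) encodes the alpha chain that binds GM-CSF. It was at 117.24 and 115.66 FPKM in Dhps cko and at 100.29 and 116.37 FPKM in Dhps flox. Dhps flox replicate 1 stood below the other 3 libraries, which lay within 2 FPKM of each other. The log2 fold change was 0.11 (SE 0.084, limma adjusted p = 0.825; 95% interval from 92.8% to 125% of the Dhps flox level).

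*Csf2rb* (ENSMUSG00000071713; chromosome 15, 78325752 to 78353847, plus strand) was at 62.83 and 57.48 FPKM in Dhps cko and at 57.1 and 61.94 FPKM in Dhps flox. The libraries of the genotypes overlapped, and each genotype had a high and a low library. The Dhps cko level was 101.1% of the Dhps flox level, a log2 fold change of 0.015 (SE 0.075, limma adjusted p = 0.985; 95% interval from 88.5% to 115%). Its neighbour *Csf2rb2* (ENSMUSG00000071714; chromosome 15, 78282507 to 78305721, minus strand) was at 19.92 and 18.65 FPKM in Dhps cko and at 18.1 and 19.48 FPKM in Dhps flox. The same libraries were high and low as for *Csf2rb*. Its log2 fold change was 0.038 (SE 0.074, limma adjusted p = 0.952; 95% interval from 90% to 117%). Of the exon bases of *Csf2rb* and *Csf2rb2*, 0.9% and 1.3% are shared with a microRNA gene on the same strand.

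The interleukin receptor genes were lower, and their libraries overlapped between genotypes. *Il6ra* (ENSMUSG00000027947; chromosome 3, 89864059 to 89913196, minus strand) encodes the chain that binds IL-6. It was at 17.84 and 16.35 FPKM in Dhps cko and at 17.11 and 17.22 FPKM in Dhps flox. Both Dhps flox libraries lay between the 2 Dhps cko libraries. The Dhps cko mean was 99.59% of the Dhps flox mean, with a log2 fold change of -0.0072 (SE 0.072, limma adjusted p = 0.993; 95% interval from 87.5% to 113%). An antisense gene covers 2.8% of its exon bases, and whether the counting used strand is not given in the sources used here.

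*Il4ra* (ENSMUSG00000030748; chromosome 7, 125552120 to 125579474, plus strand) encodes the alpha chain of the IL-4 receptor, which also serves IL-13. It was at 14.08 and 13.35 FPKM in Dhps cko and at 12.84 and 13.81 FPKM in Dhps flox. The groups overlapped, and Dhps flox replicate 1 was again the lowest library. The log2 fold change was 0.042 (SE 0.075, limma adjusted p = 0.946; 95% interval from 90% to 118%). An antisense gene that the files do not list covers 9.5% of its exon bases.

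The type I interferon receptor needs both of its chains. *Ifnar1* (ENSMUSG00000022967; chromosome 16, 91485238 to 91507441, plus strand) encodes the chain that engages the kinase TYK2. It was at 14.74 and 14.82 FPKM in Dhps cko and at 14.21 and 13.56 FPKM in Dhps flox. The groups did not overlap, and the difference was larger than the gap between the libraries of either genotype, which held for 1 of the 10 genes, this one. The log2 fold change was 0.090 (SE 0.066, limma adjusted p = 0.82; 95% interval from 94.6% to 120%). *Ifnar2* (ENSMUSG00000022971; chromosome 16, 91372783 to 91405589, plus strand) encodes the chain that binds interferon more tightly and engages JAK1. It was at 23.16 and 24.49 FPKM in Dhps cko and at 21.73 and 23.42 FPKM in Dhps flox. The groups overlapped, since Dhps flox replicate 2 was above Dhps cko replicate 1. The log2 fold change was 0.078 (SE 0.071, limma adjusted p = 0.851; 95% interval from 93% to 120%). A protein-coding model on the same strand, which the files do not list, shares 9.5% of its exon bases.

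The type II interferon receptor binds interferon gamma through *Ifngr1* and needs *Ifngr2* to signal. *Ifngr1* (ENSMUSG00000020009; chromosome 10, 19591949 to 19610229, plus strand) was at 36.53 and 37.78 FPKM in Dhps cko and at 37.46 and 38.37 FPKM in Dhps flox. The groups overlapped within a narrow range. It had the lowest log2 fold change of the 10, at -0.029 (SE 0.056, limma adjusted p = 0.948; 95% interval from 88.7% to 108%). *Ifngr2* (ENSMUSG00000022965; chromosome 16, 91547072 to 91565623, plus strand) was at 20.11 and 22.63 FPKM in Dhps cko and at 19.75 and 19.42 FPKM in Dhps flox. The groups did not overlap, but Dhps cko replicate 1 was close to the Dhps flox libraries and Dhps cko replicate 2 stood above the other 3. It had the highest log2 fold change of the 10, at 0.12 (SE 0.079, limma adjusted p = 0.805; 95% interval from 94.5% to 125%).

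The differences were set against the spread between libraries of 1 genotype. The genotype difference was smaller than the gap between the Dhps flox libraries for 8 of the 10 genes and smaller than that between the Dhps cko libraries for 7. A difference between means of 2 libraries varies less than a gap between 2 single libraries, so without a genotype effect it is more often the smaller. Neither these counts nor the 1 gene above both gaps was compared with the share over all genes. The median size of the difference was 0.060 on the log2 scale, and the median gap was 0.10 between the Dhps flox libraries and 0.078 between the Dhps cko libraries. The 2810 genes whose mean level lay within the range of the 10 had a median difference of 0.067 and median gaps of 0.10 and 0.068, so the receptor genes were about as variable as other genes of their level. Dhps flox replicate 1 was the lowest of the 4 libraries for 6 of the 10 genes. Without that library the median log2 fold change of the 10 was -0.0047 and 5 of them were higher in Dhps cko, where with all libraries 8 were. The log2 fold changes of *Csf3r* and *Csf2ra* were highest without Dhps flox replicate 2. That fit leaves 1 Dhps flox library, so its spread comes from the Dhps cko libraries and the lone library is assumed to vary like them. With each library left out, the log2 fold change ran from 0.044 (without Dhps flox replicate 1) to 0.18 (without Dhps flox replicate 2) for *Csf3r* and from 0.0010 to 0.22, without the same libraries, for *Csf2ra*. After quantile normalization it was 0.044 for *Csf3r* and 0.056 for *Csf2ra*. It ran from 0.056 (without Dhps flox replicate 2) to 0.12 for *Ifnar1*, from 0.024 (without Dhps flox replicate 1) to 0.13 (without Dhps flox replicate 2) for *Ifnar2*, from -0.053 (without Dhps cko replicate 2) to -0.0050 (without Dhps cko replicate 1) for *Ifngr1*, and from 0.038 (without Dhps cko replicate 2) to 0.21 (without Dhps cko replicate 1) for *Ifngr2*. By TPM scaling it was -0.061 for *Ifngr1*, -0.039 for *Il6ra*, 0.0056 for *Csf2rb2*, 0.0099 for *Il4ra*, 0.058 for *Ifnar1* and 0.046 for *Ifnar2*. After quantile normalization it was -0.065 for *Ifngr1*, -0.026 for *Il6ra* and 0.017 for *Csf2rb2*. With size factors it was 0.0025 for *Csf2rb*, 0.025 for *Csf2rb2* and -0.020 for *Il6ra*.

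Some of the genes had like profiles over the 4 libraries. As a description over 4 points, the Euclidean distance between centred log2 profiles was smallest for *Csf2rb2* and *Il4ra*, at 0.014. The next was *Csf2rb* and *Csf2rb2*, at 0.034, which share part of their sequence. *Csf3r* and *Csf2ra* were nearest to each other, at 0.054. *Il6ra* was nearest to *Csf2rb*, at 0.080, and *Ifnar2* to *Csf3r*, at 0.095. *Ifnar1*, *Ifngr1* and *Ifngr2* each lay 0.12 from their nearest gene.

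Ratios of chains within a library do not move with library scaling and were compared for 8 pairs. *Csf2rb* was at 0.536 and 0.497 of *Csf2ra* in Dhps cko and at 0.569 and 0.532 in Dhps flox. The transcript of the alpha chain of the GM-CSF receptor was therefore the more abundant in every library. *Csf2rb2* was at 0.317 and 0.324 of *Csf2rb* in Dhps cko and at 0.317 and 0.314 in Dhps flox, the steadiest of the ratios. *Csf3r* was 3.58 and 3.81 times *Csf2rb* in Dhps cko and 3.42 and 3.47 times in Dhps flox. The genotypes did not overlap in this ratio, nor in that of *Csf2rb2* to *Csf2rb*, where the replicate 1 libraries were nearly equal.

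Transcript levels of the paired chains were unequal for both interferon receptors. *Ifnar1* was at 0.636 and 0.605 of *Ifnar2* in Dhps cko and at 0.654 and 0.579 in Dhps flox, and the groups overlapped. *Ifngr1* was 1.82 and 1.67 times *Ifngr2* in Dhps cko and 1.9 and 1.98 times in Dhps flox. This ratio was lower in both Dhps cko libraries, by 0.15 on the log2 scale, with a difference of -0.092 without Dhps cko replicate 2 and -0.21 without Dhps cko replicate 1. An exact permutation test of 2 against 2 gave it a p of 0.33 (two-sided, and 0.89 adjusted over the 8 ratios). That is the smallest possible p, which every ratio without overlap reaches.

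Transcripts of the interleukin chains exceeded those of the partners they signal through. *Il6ra* was 11.1 and 10.1 times *Il6st*, the gene of gp130, in Dhps cko and 12.1 and 9.78 times in Dhps flox, with *Il6st* between 1.41 and 1.76 FPKM. *Il4ra* was between 1.99 and 2.52 times *Il2rg*, the common gamma chain, and between 1.58 and 2.28 times *Il13ra1*. These 3 ratios overlapped between genotypes. None of the 8 ratios could pass the test in this design, and their adjusted p were 0.89 or 1.

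**Figure D3:**
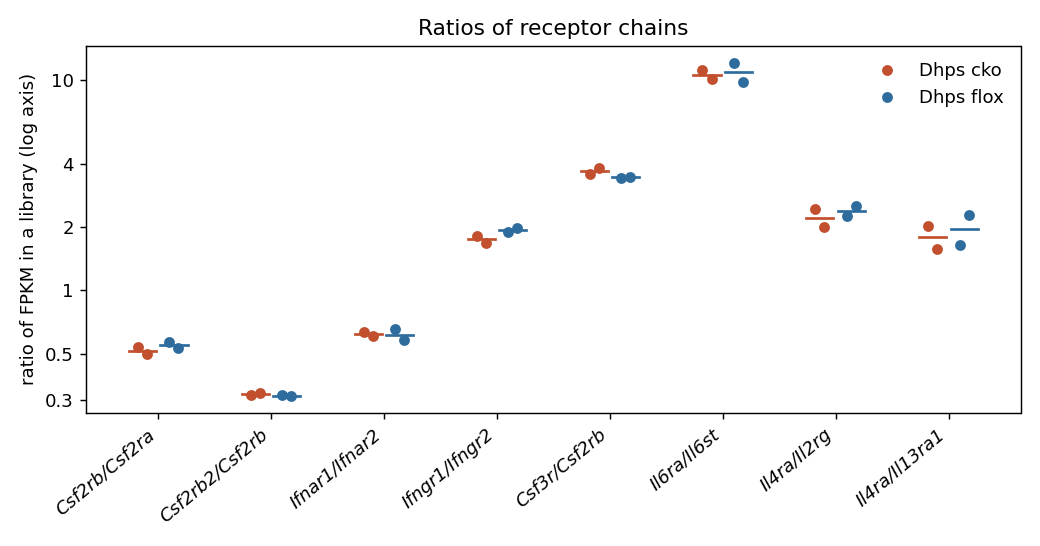
Ratio of the FPKM of receptor chains within each library on a log axis, with Dhps cko in red, Dhps flox in blue and a line at the mean of each genotype. *Csf2rb2* to *Csf2rb* stays between 0.314 and 0.324, and *Ifngr1* to *Ifngr2* is lower in both Dhps cko libraries.

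Other chains of these receptor families were compared from a list of 16. Of these 16, 0 had an unadjusted p under 0.05, where 4.72% of all genes were higher and 2.28% lower, and the median log2 fold change was 0.11, or 0.066 without Dhps cko replicate 1. That count was 2 with no trend and 1 with each gene alone. *Il17ra*, the IL-17 receptor, was at 60.78 and 58.65 FPKM in Dhps cko and at 55.42 and 60.87 FPKM in Dhps flox, which overlapped. *Csf1r*, the receptor of the macrophage growth factor, was at 39.95 and 38.28 FPKM against 34.6 and 37.8 FPKM, without overlap (log2 fold change 0.11, limma adjusted p = 0.798). The chains of other IL-3 family receptors were low, with *Il3ra* between 1.35 and 2.03 FPKM and *Il5ra*, a marker of eosinophils, between 0.09 and 0.22 FPKM.

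The ligand genes were low or not listed. Of 14 ligand genes, 6 were listed and 2 were tested. *Csf1* was at 3.41 and 3.49 FPKM in Dhps cko and at 3.1 and 3.5 FPKM in Dhps flox. *Il6* was listed at 0 and 0.06 FPKM in Dhps cko and was at 0.21 and 0.19 FPKM in Dhps flox. It reached the level needed for testing through the Dhps flox libraries, so its difference is given with no test. *Ifng* was listed at 0 in every library.

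Of 11 JAK and STAT genes, 2 had an unadjusted p under 0.05, both higher in Dhps cko, where 4.72% of all genes did so, and 0 had an adjusted p under 0.05. The 2 became 0 with no mean-variance trend, without Dhps cko replicate 2 and without Dhps flox replicate 1, and 1 without Dhps cko replicate 1 or with each gene alone. The median log2 fold change was 0.016, and was -0.016 by TPM scaling, -0.024 after quantile normalization, -0.015 without Dhps flox replicate 1 and 0.071 without Dhps flox replicate 2, so it has no settled direction. *Stat6*, which carries the IL-4 signal, was the most abundant at 65.61 and 64.58 FPKM against 58.55 and 65.09 FPKM. *Jak1*, used by the interleukin and interferon receptors here, was at 49.51 and 50.86 FPKM against 52.03 and 50.71 FPKM. The groups overlapped for both. *Stat2*, which acts below the type I interferon receptor, was at 7.83 and 7.91 FPKM in Dhps cko and at 6.29 and 6.67 FPKM in Dhps flox (log2 fold change 0.28, limma adjusted p = 0.595). It is named for its small p.

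Feedback inhibitors were tested for 11 of 12 genes, and 2 had an unadjusted p under 0.05, both higher in Dhps cko, against 4.72% of all genes. The 2 became 0 without either Dhps cko library, and 1 by TPM scaling, with no trend, with each gene alone, with the replicate block or without Dhps flox replicate 1. *Usp18*, which restrains the type I interferon receptor at *Ifnar2*, was at 1.41 and 1.46 FPKM in Dhps cko and at 0.84 and 0.62 FPKM in Dhps flox (log2 fold change 0.90, limma adjusted p = 0.532). *Socs3*, which restrains the G-CSF receptor and gp130, was at 6.68 and 6.11 FPKM against 4.85 and 5.46 FPKM (log2 fold change 0.31, limma adjusted p = 0.669). Both are named for their small p, so their separation between genotypes was fixed by that choice. The phosphatase gene *Ptpn6* was the most abundant, at 218.81 and 210.94 FPKM against 192.12 and 206.53 FPKM, followed by *Pias1* at 11.22 to 11.78 FPKM.

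Among target genes of the receptors, the interferon list had the highest median. Of its 15 tested genes, 7 had an unadjusted p under 0.05, all higher in Dhps cko, where 4.72% of all genes did so, and 0 had an adjusted p under 0.05. The median log2 fold change was 0.53, and 14 of the 15 were above 0. *Oasl2* was at 3.6 and 3.31 FPKM in Dhps cko and at 1.55 and 1.47 FPKM in Dhps flox (log2 fold change 1.14, limma adjusted p = 0.348). *Irf7*, a transcription factor of the interferon response, was at 12.65 and 11.79 FPKM against 7.4 and 7.81 FPKM (log2 fold change 0.68, limma adjusted p = 0.348). *Isg15* was at 3.89 and 3.3 FPKM against 1.63 and 1.52 FPKM. *Irf9*, a transcription factor below the type I interferon receptor, was at 13.89 and 14.33 FPKM against 9.43 and 9.96 FPKM, and *Irf1*, the most abundant, at 18.59 and 21.1 FPKM against 17.73 and 17.77 FPKM. *Oasl2*, *Irf7* and *Isg15* are named for their small p, so their separation between genotypes was fixed by that choice. The 4 interferon receptor genes had log2 fold changes between -0.029 and 0.12, and the difference between the lists was not tested. The median of the interferon list was 0.30 with a pseudocount of 1, and ran from 0.48 to 0.59 with each library left out. Both Dhps cko libraries also had higher sums of the marker lists of monocytes and macrophages, B cells, T and NK cells, eosinophils and dendritic cells. Of all tested genes, 20.0% were higher in both Dhps cko libraries. The neutrophil sums of the replicate 1 libraries were nearly equal, at 75700 FPKM in Dhps cko and 75675 FPKM in Dhps flox. The part of other cells in the values of the interferon list was not tested.

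For the target genes of STAT3 and STAT5 the median was 0.047 on the log2 scale, and 3 of 11 tested genes were at an unadjusted p under 0.05, all higher in Dhps cko, where 4.72% of all genes were. The 3 became 0 without Dhps cko replicate 1, Dhps cko replicate 2 or Dhps flox replicate 1, 2 with size factors or quantile normalization, and 1 by TPM scaling, with no trend, with each gene alone or with the replicate block. In addition, 1 gene of the list was lower at that p with the filter at 1 FPKM, by TPM scaling, with size factors, after quantile normalization, with the replicate block and without Dhps flox replicate 2. The median was 0.015 by TPM scaling and 0.12 without Dhps flox replicate 2. The 3 higher genes were *Bcl3*, at 5.8 and 5.99 FPKM against 4.22 and 4.84 FPKM, *Pim1*, at 25.93 and 27.02 FPKM against 22.87 and 23.91 FPKM, and *Socs3*. The survival gene *Mcl1* was the most abundant, at 120.47 and 134.17 FPKM against 146.28 and 123.22 FPKM, and *Junb* followed at 51.51 to 58.15 FPKM. Of 8 tested IL-4 target genes, 0 had an unadjusted p under 0.05 in limma, and 1 had one with no trend. *Chil3*, which neutrophils also express, was at 2842.63 and 2878.51 FPKM against 2796.69 and 2624.35 FPKM, and *Mrc1* at 7.63 and 8.53 FPKM against 7.87 and 7.35 FPKM.

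**Figure D4:**
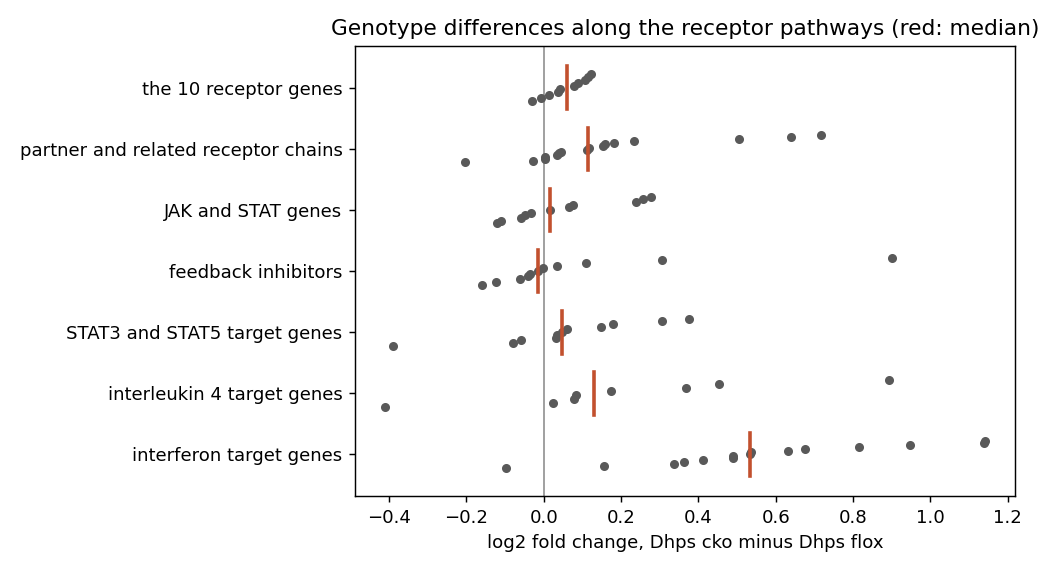
Log2 fold changes, Dhps cko minus Dhps flox, of the tested genes of each list, with 1 point per gene and a red line at the median. The receptor genes lie between -0.029 and 0.12 with a median of 0.060, and the interferon target genes have a median of 0.53.

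Other leukocytes express several of these receptors too, and the sums of some of their marker genes did not overlap between genotypes. No marker gene had an adjusted p under 0.05 in limma. In bulk samples, fewer cells of a type and less RNA per cell cannot be told apart. The neutrophil list summed to 75700 and 77989 FPKM in Dhps cko and to 75675 and 71415 FPKM in Dhps flox, with 1 of 10 genes at an unadjusted p under 0.05 (*Ly6g*, higher in Dhps cko), and 0 without Dhps cko replicate 2, without Dhps flox replicate 2 or with no trend. The monocyte and macrophage list summed to 365.6 and 361.72 FPKM against 303.16 and 299.68 FPKM, with 5 of 12 at an unadjusted p under 0.05, all higher, where 4.72% of all genes were. That count was 3 without Dhps cko replicate 1 or without Dhps flox replicate 2. Its most abundant gene was *Ly6c2*, at 183.75 to 192.22 FPKM against 157.95 to 160.82 FPKM. The B cell list summed to 66.08 and 68.41 FPKM against 41.87 and 51.51 FPKM, with 5 of 8 genes higher at that p. That count was 2 with each gene alone. The median log2 fold change of the B cell list was 0.66, and ran from 0.42 to 0.85 with each library left out. The T and NK cell list summed to 20.64 and 16.7 FPKM against 14.04 and 9.8 FPKM, with 3 of 9, which became 0 without Dhps cko replicate 1, without Dhps flox replicate 2 or with each gene alone, and 1 without Dhps cko replicate 2. The early neutrophil list summed to 81.25 and 54.51 FPKM against 46.28 and 56.53 FPKM. The eosinophil list summed to 12.62 and 10.95 FPKM against 8.96 and 8.95 FPKM, with 1 of 6 genes higher at that p. That became 0 without a filter or with each gene alone. The dendritic cell list summed to 14.06 and 13.76 FPKM against 8.27 and 10.54 FPKM, with 1 of 6 tested genes higher at that p. That became 2 with each gene alone or the replicate block and 3 with no trend. Most of the dendritic sum was *H2-Ab1*, *Itgax* and *Bst2*, and each other gene of that list was at 0.27 FPKM or less. The basophil and mast cell list (5.87 to 18.7 FPKM over the 4 libraries), the platelet list (1.66 to 4.43 FPKM) and the erythroid list (368.83 to 553.09 FPKM) had 0 genes at that p, as had the early neutrophil list. The most abundant gene of each list was *Ngp* for neutrophils (26339.45 to 27901.98 FPKM over the 4 libraries), *Ms4a3* for early neutrophils (20.55 to 24.39 FPKM), *Siglecf* for eosinophils (4.49 to 5.62 FPKM), *Prss34* for basophils and mast cells (2.4 to 9.76 FPKM), *Hbb-bs* for erythroid cells (198.72 to 298.19 FPKM) and *Pf4* for platelets (0.66 to 1.58 FPKM). For the lymphoid and dendritic lists it was *Ighm*, at 40.56 and 42.91 FPKM against 27.03 and 31.99 FPKM, *Trbc2*, at 8.25 and 5.36 FPKM against 3.57 and 1.51 FPKM, and *H2-Ab1*, at 6.78 and 6.46 FPKM against 3.96 and 4.6 FPKM. Among the defining markers, *Klrb1c* of NK cells was listed at 0 in 2 libraries, *Ncr1* of NK cells in 1 and *Gp1bb* of platelets in 3. The sort for CD11b+, Ly6G+ and Ly6C low or negative cells is meant to remove lymphocytes and Ly6C-high monocytes, and the part of any remaining cells in the receptor values was not tested.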

How the data were processed

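Bulk RNA was sequenced from 4 libraries of splenic PMN-MDSCs. Per the study's methods, reads were trimmed by the authors in Cutadapt and aligned by HISAT2 (to mm10, per the submitters' processing notes) and deposited FPKM per gene from StringTie and ballgown. The annotation release, the strand setting and any scaling between libraries are not given in the sources used here. FPKM are shares of a library, so a few abundant genes can move all others. Of the 28585 gene identifiers, 28511 were in GENCODE M21 (GRCm38), which gave coordinates and transcripts.

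The genotype difference was tested by limma (3.58.1, under R 4.3.3; functions lmFit and eBayes, the latter with trend) on log2(FPKM + 0.1) over genes averaging 0.1 FPKM or more, two-sided and without a replicate block, with Benjamini-Hochberg adjustment and a threshold of 0.05. Fold changes on this scale understate those of low genes. Chain ratios were compared by exact permutation. The low values of short single-exon genes were searched for steps of whole fragments. At the best step 38.9% to 41.8% of them lay within 0.15 fragments of a whole number, where an even spread would give 30%, so neither depth nor read counts were recovered and no count model was run. Python 3.11.15, pandas 2.3.3, scipy 1.17.1, Biopython 1.88 and matplotlib 3.10.9 served the other steps.

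The receptor genes, the other gene lists and the tests were chosen with earlier results of these data known, so no list is independent evidence. The text names every receptor gene, *Dhps*, *Lyz2*, the 2 most abundant genes of each pathway list, up to 3 with the smallest unadjusted p under 0.05, the chains of the ratios, and the nearest profile of a receptor gene. Marker lists are given by their sums and their most abundant or absent genes. *Il3ra*, *Il5ra*, *Ifng*, *Ly6g*, *Ifnlr1*, *Il10ra*, *Il10rb*, *Csf3*, *Itgax* and *Bst2* were named after their values were seen. A gene that the rule names is not reported here. Results were recomputed with a changed pseudocount, filter, scaling or variance model, with a replicate block, with the paralogs summed and without each library in turn.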

Additional observations from a re-analysis of the deposited data

How the results depend on the processing

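No receptor gene had an adjusted p under 0.05 under any of 14 alternatives, where their adjusted p ran from 0.542 to 0.999. Among all genes, 1 had an adjusted p under 0.05, 0 with a pseudocount of 0.01, 0 without a filter, 4 with a mean of at least 1 FPKM, 2 after quantile normalization, 12 with each gene alone, 0 with each library left out, and 1257 had an unadjusted p under 0.05. With the replicate block the count was also 0. The genotypes were littermates, but the replicate numbers share no stated litter, animal or day. The deviations of same-numbered libraries had a correlation of -0.057, so the block carries no known pairing. The median log2 fold change of the receptor genes, 0.060, ran from -0.0047 to 0.092 with each library left out. *Csf2rb* was at -0.017 by TPM scaling and at -0.018 after quantile normalization. With each library left out *Csf2rb* ran from -0.049 to 0.079, *Csf2rb2* from -0.015 to 0.090, *Il6ra* from -0.070 to 0.055 and *Il4ra* from -0.010 to 0.094. Likewise the log2 difference of *Ifnar1* to *Ifnar2* ran from -0.076 to 0.10, of *Il6ra* to *Il6st* from -0.20 to 0.11, of *Il4ra* to *Il2rg* from -0.26 to 0.028 and of *Il4ra* to *Il13ra1* from -0.35 to 0.11. The direction of these values therefore rests on single libraries, and the cause was not tested. With *Csf2rb* and *Csf2rb2* summed, the log2 fold change was 0.021. Without a library, 1 genotype has a single library, which is assumed to vary like the other genotype. With 2 libraries a genotype, small differences were not detectable.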

Other observations

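Transcripts of the type III interferon receptor were present as well. *Ifnlr1*, its specific chain, was at 34.76 and 32.97 FPKM in Dhps cko and at 30.65 and 31.81 FPKM in Dhps flox, which placed it near *Ifngr1* in level. Its partner *Il10rb*, which also serves IL-10, was at 16.49 and 18.64 FPKM against 18.79 and 16.98 FPKM, and *Il10ra* was at 9.54 and 9.13 FPKM against 8.04 and 10.79 FPKM. None of the 3 had an unadjusted p under 0.05. *Csf3*, the gene of G-CSF, was listed at 0 and 0.05 FPKM in Dhps cko and was at 0.12 and 0.18 FPKM in Dhps flox, below the level needed for testing.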
